A study of Mus musculus with 2 samples.

Results

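The 10 genes described here encode subunits of the Polycomb repressive complexes. They were taken by symbol from a table of 21041 genes, and all 10 were found in it. 5 belong to PRC2 (*Ezh1*, *Ezh2*, *Eed*, *Suz12* and *Jarid2*) and 5 to PRC1 (*Ring1*, *Rnf2*, *Bmi1*, *Cbx7* and *Phc1*). Expression was measured by mRNA sequencing of DP thymocytes, which carry both CD4 and CD8 and make up most of the thymus, with 1 WT and 1 *Cxxc1*-deficient library. In the study's methods, WT mice carry the floxed *Cxxc1* fl/fl allele without Cre. The deficient mice combine *Cxxc1* fl/fl with the h*CD2*-Cre transgene, whose human CD2 promoter drives Cre recombinase in early thymocytes and also in other immune cells. The sample's genotype label reads *Cxxc1*+/-, so the library was grouped by its title, which calls it a knockout. The floxed allele was made in ES cells of another strain and backcrossed to C57BL/6, and the mice were a few weeks old. Sex and the number of mice in each library are not given in the sources used here.

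Polycomb complexes keep genes silent through histone marks. PRC2 places methyl groups on lysine 27 of histone H3, with EZH1 or EZH2 as the enzyme, EED and SUZ12 as obligate partners and JARID2 as an accessory subunit that helps to bring the complex to chromatin. PRC1 attaches ubiquitin to histone H2A through RING1 or RNF2, which work with a PCGF protein such as BMI1, while CBX7 reads the PRC2 mark and PHC1 helps complexes to cluster. In the T-cell lineage these genes are known for restraining the *Cdkn2a* cell cycle inhibitor locus and for silencing regulators of other cell types. CXXC1, the protein removed here, acts on the opposite, activating side. It binds unmethylated CpG dinucleotides and is a subunit of the SETD1 complex, which methylates lysine 4 of histone H3. In the study's DP thymocytes CXXC1 was enriched at the centre of CpG islands, but few of its binding sites lay in islands or promoters. A CXXC1 mutant without DNA binding still let deficient thymocytes reach the DP stage in culture.

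Because CXXC1 binds CpG, the sequence upstream of the transcription start is shown for *Ezh2* and *Suz12*, the PRC2 genes with the highest deposited values, and for *Phc1*, the only one of the 10 with a higher value in *Cxxc1*-deficient cells. Each is the 250 bases before the start in RefSeq, 5′ to 3′ on the strand of the gene, in the build GRCm38.p6, and capitals mark CpG dinucleotides. The windows lie at chr6:47595031-47595280 on the minus strand (*Ezh2*), chr11:79992856-79993105 on the plus strand (*Suz12*) and chr6:122340228-122340477 on the minus strand (*Phc1*).
Ezh2: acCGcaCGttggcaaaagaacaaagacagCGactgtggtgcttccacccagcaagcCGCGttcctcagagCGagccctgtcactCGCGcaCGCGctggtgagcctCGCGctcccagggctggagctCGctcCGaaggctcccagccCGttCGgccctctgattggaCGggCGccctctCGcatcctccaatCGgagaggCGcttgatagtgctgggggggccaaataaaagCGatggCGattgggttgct
Suz12: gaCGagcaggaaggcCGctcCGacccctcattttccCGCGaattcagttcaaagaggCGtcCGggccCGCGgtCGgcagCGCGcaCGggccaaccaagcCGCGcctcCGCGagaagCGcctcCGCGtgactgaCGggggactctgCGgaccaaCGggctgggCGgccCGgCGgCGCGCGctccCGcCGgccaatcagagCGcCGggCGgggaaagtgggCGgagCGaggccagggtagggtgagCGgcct
Phc1: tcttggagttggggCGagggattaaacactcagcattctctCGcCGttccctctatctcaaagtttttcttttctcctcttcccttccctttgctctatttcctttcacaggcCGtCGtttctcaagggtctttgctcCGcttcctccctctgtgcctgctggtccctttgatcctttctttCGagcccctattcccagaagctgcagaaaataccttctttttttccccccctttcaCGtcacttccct

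The *Suz12* window holds 37 CpG, the most of the 10 genes, the *Ezh2* window 23 and the *Phc1* window 8, the fewest. Over the 19100 such windows of genes in the table the median was 10 CpG, with quartiles of 3 and 19. *Eed* had 12, *Ezh1* 14, *Rnf2* 20, *Bmi1* 21, *Cbx7* 23 and *Ring1* 30, and the 2 listed starts of *Jarid2* had 23 and 22. Thus 9 of the 10 genes had more CpG upstream than the median window, and *Phc1* had fewer. Windows of genes whose mean value over the 2 libraries reached 100 held more, with a median of 18 CpG and quartiles of 10 and 26. *Eed* and *Ezh1* were below that median, and *Ezh2* was between these quartiles. *Suz12* and *Ring1* were above the upper quartile and *Phc1* below the lower. Among genes whose mean value reached 100, the only ones compared, ratios differed little with the largest CpG count of their windows. The log2 of the ratio between *Cxxc1*-deficient cells and WT had a median of -1.03 for the 217 genes with at most 8 CpG. For the 781 genes with at least 23 the median was -1.12. These medians were far less apart than the quartiles within either group (-1.52 and -0.58 in the first, -1.46 and -0.79 in the second).

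The values are normalized expression values that the authors rounded to whole numbers; they are not read counts, and the depth behind them is unknown. Whether they are per transcript length is not settled by the data: over 4 classes of protein-coding genes by transcript length, the median value in WT was 29 in the shortest class, where the median transcript has 1044 bases, and 50 in the longest, where it has 5410 bases, and the 90th percentiles were 70 and 248. Levels of different genes are therefore not compared, and a ratio between genes is read only for how it differs between the libraries, where length cancels. Genes that thymocytes are not known to use were also listed above 0. The 1102 olfactory receptor genes had a median of 22 in WT against 24 in *Cxxc1*-deficient cells, with 95th percentiles of 53.95 and 57, and values in this range are called background below, with the limit that longer transcripts may have a higher one. Values summed over all genes to 1551994 in WT against 981677 in *Cxxc1*-deficient cells. The targeted gene, *Cxxc1*, had 91 in WT against 50 in *Cxxc1*-deficient cells, a ratio of 0.549, and 26.7% of genes in its range of mean values (50 to 100) had a ratio at least as low. The value of 50 lies inside the background range, and with the last of the scalings given at the end *Cxxc1* had a log2 ratio of 0.13. By qPCR and western blot, the study reports almost no *Cxxc1* mRNA and loss of the protein in deficient DP thymocytes. Cre removes only some exons of *Cxxc1*, and the part of the remaining exons in the value of 50 was not tested. All 8 DP thymocyte markers were present, from *Ptcra* at 79 to *Rag1* at 20778 in WT, and all 8 were lower in *Cxxc1*-deficient cells. For markers of other cells, the summed values in WT and *Cxxc1*-deficient cells were 142 and 101 for 4 B cell genes, 75 and 65 for 4 erythroid genes, 214 and 209 for 5 macrophage and dendritic cell genes (101 and 107 of these from *Itgam*), 105 and 102 for 4 NK cell genes, and 94 and 88 for 4 thymic epithelium genes, with *Hba-a1* listed at 0 in both libraries and *Krt8* at 0 in *Cxxc1*-deficient cells; their part in the Polycomb values was not tested. Of 15 Y-linked genes, the WT library had 0 above 0 and the *Cxxc1*-deficient library 7, so the sex of the mice and the genotype cannot be told apart. No replicate spread exists for either genotype (1 library each), and no test was made. Since whole-population RNA was sequenced, fewer cells with a transcript and less of it per cell cannot be told apart.

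*Cxxc1*-deficient DP thymocytes had lower values than WT for 9 of the 10 Polycomb genes, and for 6 of them the value was at least 2-fold lower. All 5 PRC2 genes were among these 6, with fold reductions from 2.29 for *Ezh1* to 3.61 for *Ezh2*. Of the PRC1 genes, *Ring1* was 2.26-fold lower, *Rnf2*, *Cbx7* and *Bmi1* were lower by less than 2-fold (and higher under at least 1 of the 4 other scalings of the libraries given at the end), and *Phc1* was higher. The median log2 ratio was -1.45 over the PRC2 genes, -0.38 over the PRC1 genes and -1.19 over all 10. Over the 20125 genes above 0 in at least 1 library, 60% were lower, 17.4% were at least 2-fold lower and the median log2 ratio was -0.20. These shares depend on the level of the gene. At least 2-fold lower values were found for 9.75% of genes with a mean of the 2 libraries under 50, 20% of those from 50 to 100 and 56.8% of those of at least 100, with median log2 ratios of 0, -0.53 and -1.08. *Ezh2*, *Suz12*, *Jarid2*, *Rnf2* and *Phc1* belong to the highest of these ranges, *Ezh1*, *Eed* and *Cbx7* to the middle one, and *Ring1* and *Bmi1* to the lowest. Any lower value was found for 47.8%, 82.6% and 95.2% of these genes and any higher value for 48.5%, 16.1% and 4.69%, while at least 2-fold higher values were found for 8.22%, 0.656% and 0.485%. The 6 of 10 is thus to be read against different shares, and in the highest range, where most genes were at least 2-fold lower, 3 of the 5 Polycomb genes were.

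**Figure D1:**
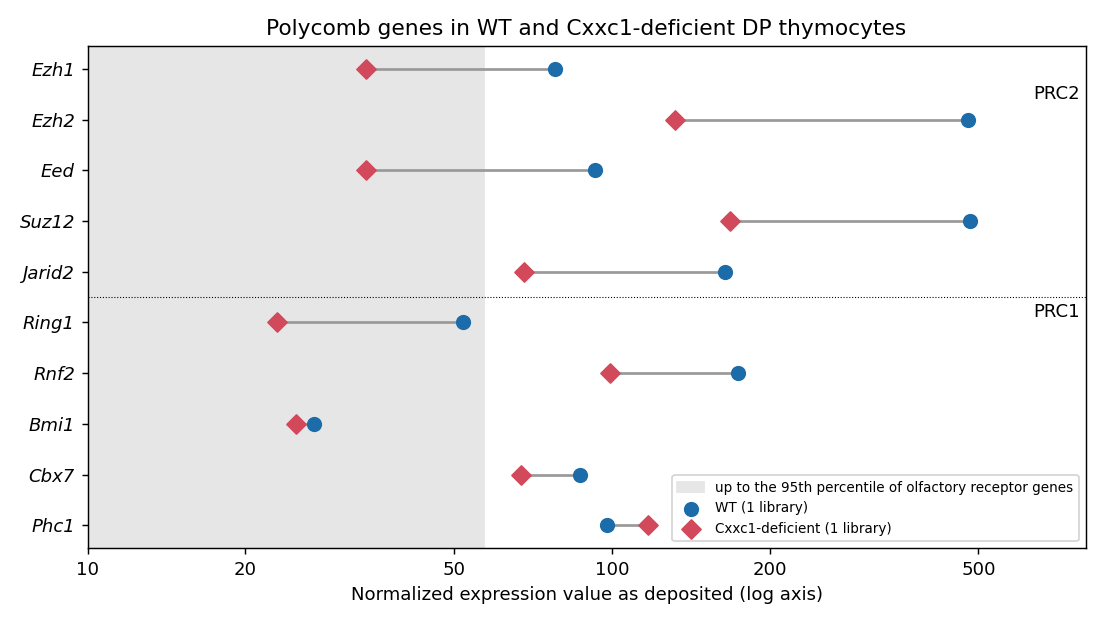
Deposited value of each Polycomb gene (log axis) in the WT library (circles) and the Cxxc1-deficient library (diamonds), joined by a line, with the range up to 57, the 95th percentile of olfactory receptor genes in the Cxxc1-deficient library, in grey. The PRC2 genes sit at 78 to 482 in WT and at 34 to 168 in Cxxc1-deficient cells, whereas Phc1 lies at 98 and 117; each point is 1 library.

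The methyltransferase gene *Ezh2* is found, in the build mm9 used for all 10 genes, on chromosome 6 from 47480273 to 47545340 on the minus strand. Its value was 477 in WT against 132 in *Cxxc1*-deficient cells, so 27.7% of the WT value remained, the smallest share among the 10 genes as deposited. After subtraction of the olfactory receptor median from each library the log2 ratio of *Ezh2* was -2.07. *Bmi1* at -2.32, *Ezh1* at -2.49, *Eed* at -2.83 and *Ring1* were then lower. In *Cxxc1*-deficient cells these other genes lay inside the background, with *Bmi1* and *Ring1* then at the floor of 1, so this order is not resolved. Rounding of the deposited values moves the ratio of 0.277 only between 0.275 and 0.278. Of the 2472 genes whose mean reached 100, 9.59% had a ratio at least as low. *Ezh2* was well above the background in both libraries, at 21.7 times the olfactory receptor median in WT and 5.50 times in *Cxxc1*-deficient cells. Its upstream window, shown above, holds more CpG than the upper quartile of all windows. Among windows of genes whose mean reached 100 its count lies between the quartiles.

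*Suz12*, whose product holds PRC2 together, lies on chromosome 11 from 79806608 to 79847625 on the plus strand. It had 482 in WT against 168 in *Cxxc1*-deficient cells (2.87-fold lower). Among genes of its range, 21.6% had a ratio at least as low. The study lists *Suz12* among genes chosen for both a Cxxc1-binding site by ChIP-seq and a change of at least 2-fold in expression. The change was taken from these same libraries, so the direction of *Suz12* here is not independent evidence. *Ezh2* and *Suz12* each share exon sequence with a noncoding gene on the opposite strand (174 bases with *Gm17629* and 178 bases with *Gm16706*), and whether reads were counted by strand is not given in the sources used here.

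*Eed*, which encodes the subunit that binds the H3K27me3 mark, lies on chromosome 7 from 97103166 to 97129493 on the minus strand. It had 93 in WT against 34 in *Cxxc1*-deficient cells (2.74-fold lower). Only 6.13% of genes with a mean from 50 to 100 had a ratio at least as low. The WT value was above that of all 1102 olfactory receptor genes, whereas 33.7% of them had at least 34 in the *Cxxc1*-deficient library, so *Eed* lay above the background in WT and inside it in *Cxxc1*-deficient cells.

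*Ezh1* encodes the second PRC2 methyltransferase, which is typical of cells that do not divide, and lies on chromosome 11 from 101052429 to 101087777 on the minus strand. It had 78 in WT against 34 in *Cxxc1*-deficient cells (2.29-fold lower), and 12.0% of genes in the same range were at least as low. As for *Eed*, the value in *Cxxc1*-deficient cells lay inside the background. How much *Ezh1* or *Eed* transcript remained in *Cxxc1*-deficient cells could therefore not be resolved. *Jarid2*, on chromosome 13 from 44824843 to 45017012 on the plus strand, had 164 in WT against 68 in *Cxxc1*-deficient cells (2.41-fold lower). This was close to the middle of its range, where 36.4% of genes had a ratio at least as low.

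The PRC1 ubiquitin ligase gene *Rnf2*, which encodes RING1B, lies on chromosome 1 from 153316536 to 153347953 on the minus strand. It had 174 in WT against 99 in *Cxxc1*-deficient cells (1.76-fold lower), and both values were above those of all olfactory receptor genes. Most genes of its level were lower by more, and 70.3% had a ratio at or below that of *Rnf2*. Its paralog *Ring1*, on chromosome 17 from 34157737 to 34161625 on the minus strand, had 52 in WT against 23 in *Cxxc1*-deficient cells. The fold reduction of 2.26 rests on low values: 5.99% of olfactory receptor genes had at least 52 in WT and 51.6% had at least 23 in *Cxxc1*-deficient cells.

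*Bmi1*, which encodes the PCGF partner of the ligases and is known for the repression of *Cdkn2a*, lies on chromosome 2 from 18598645 to 18608256 on the plus strand. It had 27 in WT against 25 in *Cxxc1*-deficient cells, values that 39.7% and 49.0% of olfactory receptor genes reached. *Bmi1* was thus not told apart from the background in either library. Only uniquely mapped reads were kept by the authors. Of the 3321 windows of 50 bases, the read length, in its exons, 80.9% occur once in the mm9 genome as exact matches on either strand, whereas for the other 9 genes the share ran from 96.8% for *Suz12* to 100%.

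*Cbx7*, whose chromodomain binds the PRC2 mark, lies on chromosome 15 from 79746237 to 79801549 on the minus strand. It had 87 in WT against 67 in *Cxxc1*-deficient cells (1.30-fold lower), and 61.4% of genes in its range had a ratio at or below its own. *Phc1*, which encodes a polyhomeotic subunit and lies on chromosome 6 from 122267749 to 122290579 on the minus strand, had 98 in WT against 117 in *Cxxc1*-deficient cells. Its ratio was 1.19, and rounding allows 1.18 to 1.21. Among the 2472 genes whose mean reached 100, 4.69% were higher in *Cxxc1*-deficient cells and 56 genes, *Phc1* included, had a ratio of at least this size. *Phc1* exceeded all olfactory receptor genes in both libraries, and each window of its exons occurs once in the genome.

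**Figure D2:**
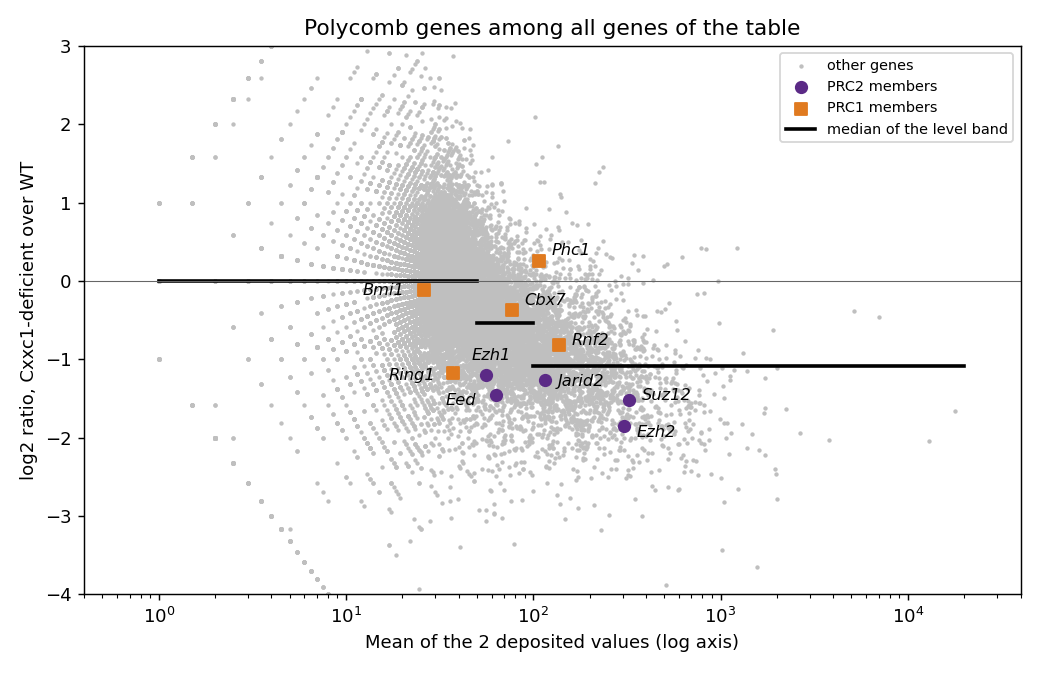
log2 ratio of Cxxc1-deficient to WT against the mean of the 2 deposited values (log axis) for all genes above 0 in at least 1 library (grey), with PRC2 genes as circles, PRC1 genes as squares and the median of each range of means as a black line; 213 genes have a log2 ratio outside the drawn range. The medians step down from 0 to -0.53 and -1.08, the PRC2 genes lie below the line of their range, and Rnf2, Cbx7 and Phc1 lie above it.

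All 5 PRC2 genes had a ratio below the median of their range, by 0.19 (*Jarid2*) to 0.92 (*Eed*) on the log2 scale. Of the PRC1 genes, *Ring1* and *Bmi1* were below it, and *Cbx7*, *Rnf2* and *Phc1* were above it by 0.16, 0.27 and 1.34. The quartiles of the highest range were -1.46 and -0.73. *Ezh2* at -1.85 and *Suz12* at -1.52 lay beyond the lower of these and *Phc1* at 0.26 beyond the upper, while *Jarid2* at -1.27 and *Rnf2* at -0.81 were between them. In the middle range, with quartiles of -0.90 and -0.16, *Eed* at -1.45 and *Ezh1* at -1.20 lay beyond the lower and *Cbx7* at -0.38 was between them.

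Measures taken inside a library do not depend on how the 2 libraries are scaled. The PRC2 genes made up 74.7% of the summed value of the 10 genes in WT against 56.8% in *Cxxc1*-deficient cells. *Ezh2* alone went from 27.5% to 17.2% of the sum and *Suz12* from 27.8% to 21.9%, whereas *Phc1* went from 5.66% to 15.3%. The deposited value of *Phc1* was 0.205 of that of *Ezh2* in WT against 0.886 in *Cxxc1*-deficient cells. These shares are of deposited values, in which longer transcripts may weigh more.

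The paralog pairs were compared in the same way. The ratio of *Ezh2* to *Ezh1* was 6.12 in WT against 3.88 in *Cxxc1*-deficient cells. It turned around, from 8.13 to 10.8, when the median of the olfactory receptor genes was subtracted in each library, so no direction is given for this pair. The ratio of *Rnf2* to *Ring1* was 3.35 in WT against 4.30 in *Cxxc1*-deficient cells. After the subtraction it was 5.07 in WT, whereas *Ring1* in *Cxxc1*-deficient cells was below the subtracted median, so that the ratio of 75 only reflects the floor of 1.

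Ranks among all genes of a library differed from the shares in which genes moved most. *Ezh2* and *Suz12* stood at percentiles 98.4 and 98.5 in WT and at 96.0 and 97.5 in *Cxxc1*-deficient cells, so they remained near the top of the ranking while their values were lower. *Ezh1* went from 79.7 to 46.2, *Eed* from 83.0 to 46.2 and *Ring1* from 69.2 to 23.3. In *Cxxc1*-deficient cells these genes lay inside the background, where many genes have close values and a small difference moves a rank far. *Phc1* went from 84.0 to 95.1, *Cbx7* from 81.7 to 86.1 and *Rnf2* from 92.0 to 93.3.

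**Figure D3:**
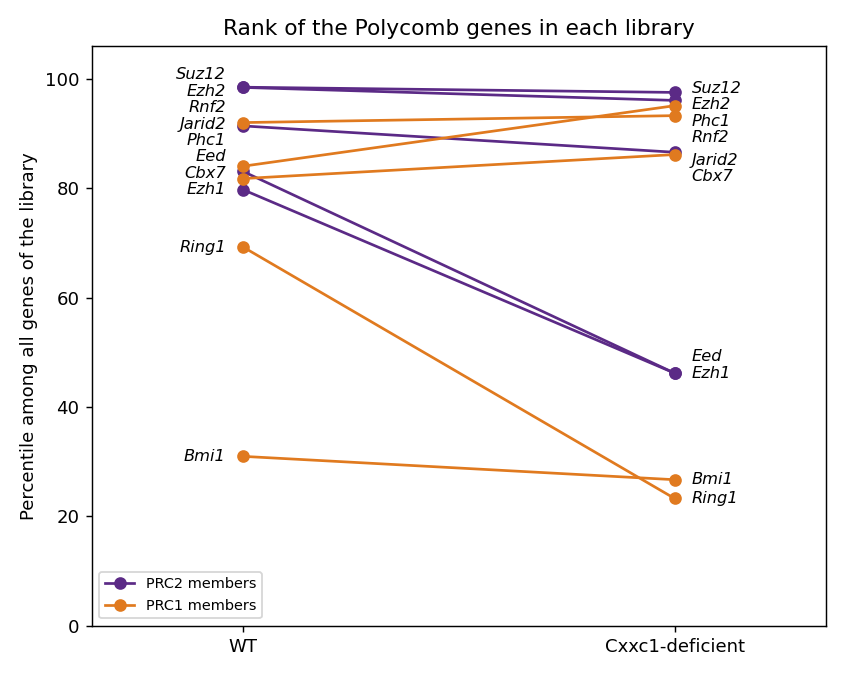
Percentile of each Polycomb gene among all 21041 genes in the WT library (left) and the Cxxc1-deficient library (right), with 1 line per gene, PRC2 genes in purple and PRC1 genes in orange. Eed dropped by 36.9, Ezh1 dropped by 33.5 and Ring1 dropped by 46.0 percentile points, while the line of Phc1 goes up by 11.1.

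For each gene at least 2-fold lower, the 2 genes outside the list with the most similar pair of values were found by Euclidean distance between log2 values over the 2 libraries. *Ezh2* was closest to *Zbtb44* (463 in WT against 134 in *Cxxc1*-deficient cells) and *Ugcg* (495 and 134), and *Suz12* to *Gabpa* (489 and 171) and *Chd4* (493 and 170). *Jarid2* was closest to *Zfp422* (163 and 68) and *Sae1* (164 and 69), *Eed* to *Cd2bp2* and *Kxd1* (93 and 35 for both), *Ezh1* to *Smn1* (79 and 34) and *Ccdc125* (77 and 34), and *Ring1* to *Gm4791* and *Mms19*, with the same values as its own. A distance of at most 0.1 was found for 8 genes around *Ezh2*, 9 around *Suz12* and 20 to 44 around the other 4, so pairs of values like these were not rare.

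Other genes of the Polycomb system were also mostly lower, as were genes of like level in general. Of 43 further genes (6 PRC2 subunits, 25 PRC1 subunits, 10 genes of the PR-DUB deubiquitinase and 2 H3K27 demethylases), 38 were lower in *Cxxc1*-deficient cells, 4 were higher and 1 was equal. Of all genes, 60% were lower, but 27 of the 43 had a mean of at least 50, and in the middle and highest ranges 82.6% and 95.2% of genes were lower. At least 2-fold lower values were found for 9 of the 41 genes whose mean reached 20, against 17.4% of all genes and 56.8% of those in the highest range, to which 13 of the 43 belong. For 0 of the 41 the value was at least 2-fold higher, against 5.89% of all genes, which were not filtered on the mean. The share was 8.22% for genes with a mean under 50, and 0.656% and 0.485% in the middle and highest ranges. These counts do not set the list apart from genes of like level. Over the 43 genes the median log2 ratio was -0.66. This direction depends on the scaling: with the same 75th percentile 29 of the 43 were lower, with the same sum 24, and with the same median over the highest genes 10, with a median log2 ratio of 0.34.

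Among the PRC2 subunits all 6 were lower. *Mtf2*, which encodes a Polycomb-like protein that recruits PRC2 to CpG islands, had 347 in WT against 150 in *Cxxc1*-deficient cells (2.31-fold lower). The histone chaperone genes *Rbbp4* and *Rbbp7* had 134 and 56, and 59 and 19, in WT and *Cxxc1*-deficient cells. Only 83.7% of the exon windows of *Rbbp7* occur once in the genome. In *Cxxc1*-deficient cells both genes lay inside the background: 6.08% of olfactory receptor genes reached the value of *Rbbp4* and 62.2% that of *Rbbp7*. The size of these reductions could therefore not be resolved. *Aebp2*, an accessory subunit found with JARID2, had 176 and 112 (1.57-fold lower). *Phf1* and *Phf19* had means under 50.

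Of the 25 PRC1 genes, 14 had a mean of at least 50, and all 14 were lower, with a median log2 ratio of -0.74. 4 of these were at least 2-fold lower. Of the 14, 5 belong to the highest range, where 95.2% of genes were lower and 56.8% at least 2-fold lower, and the others to the middle one, with 82.6% and 20%. *Max*, which encodes the partner of MYC and a subunit of the PCGF6 form of PRC1, had 316 in WT against 73 in *Cxxc1*-deficient cells (4.33-fold lower), a larger reduction than that of any of the 10 main genes. *Mga*, its partner in that complex, had 306 and 145, *Usp7*, a deubiquitinase, had 438 and 188, and *Phc3*, a paralog of *Phc1*, had 219 and 109. The smallest reduction among the 14 was that of *Fbrs*, with 223 and 190. The other 9 had fold reductions from 1.34 for *Phc2* (59 and 44) to 1.79 for *Cbx6* (84 and 47), among them *Pcgf3* (123 and 72), *Pcgf5* (78 and 44), *Pcgf6* (77 and 47), *Yaf2* (79 and 50), *Bcor* (107 and 76) and *Scmh1* (93 and 64). In *Cxxc1*-deficient cells *Phc2*, *Cbx6*, *Pcgf5*, *Pcgf6* and *Yaf2* lay inside the background, so the size of their reductions could not be resolved. The 3 polyhomeotic paralogs thus differed in direction, with *Phc2* and *Phc3* lower and *Phc1* higher. *Phc1* was higher under each of the 4 scalings described at the end. *Phc2* was higher with the last 2 of them (log2 ratios of 0.14 and 0.57), and *Phc3* had a log2 ratio of -0.44 with the third and of -0.01, practically no difference, with the last. *Rybp* was listed at 1 in both libraries, and only 20.6% of its exon windows occur once in the genome, so its level cannot be read from uniquely mapped reads. *Pcgf1* had 5 in WT and was listed at 0 in the *Cxxc1*-deficient library.

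PR-DUB removes the ubiquitin that PRC1 places. *Bap1*, its catalytic subunit, had 102 in WT against 47 in *Cxxc1*-deficient cells (2.17-fold lower). The value of 47 was reached by 13.2% of olfactory receptor genes and lay inside the background, so the size of this reduction could not be resolved. *Ogt*, which encodes a glycosyltransferase bound to BAP1, had 810 and 328 (2.47-fold lower). The scaffold genes *Asxl1* and *Asxl2* had 112 and 67, and 252 and 133. *Hcfc1* had 230 and 201, *Foxk1* 83 and 68, *Mbd6* 84 and 80, and *Mbd5* 128 and 132, so that *Mbd5*, like *Phc1*, was not lower, as for few genes of its level. *Asxl3* and *Foxk2* had means under 50. Of the enzymes that remove the PRC2 mark, *Kdm6a* had 255 in WT against 136 in *Cxxc1*-deficient cells (1.88-fold lower), and *Kdm6b* had 251 and 200 (1.26-fold lower), with 89.9% of genes in its range at or below the ratio of *Kdm6b*. For *Kdm6a*, as for the other genes, the sex of the mice and the genotype cannot be told apart.

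**Figure D4:**
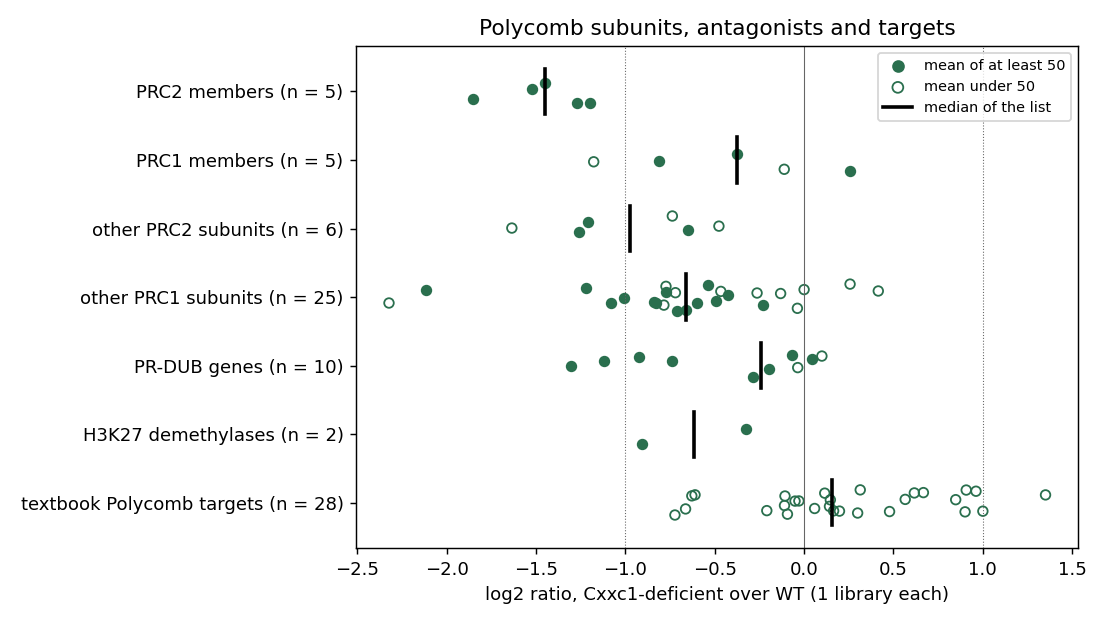
log2 ratio of Cxxc1-deficient to WT for each gene of the Polycomb lists, with filled points for a mean of at least 50, open points for a lower mean and a black line at the median of each list. Medians run from -1.45 for the PRC2 genes to 0.16 for the textbook targets, all of which are open points; dotted lines mark 2-fold.

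A list of 28 genes that Polycomb is known to silence in many cell types, mostly regulators of other lineages such as *Gata4*, *Pax6* and *Nkx2-5*, was read as a measure of target expression. Their values were from 15 to 57 in WT and from 19 to 51 in *Cxxc1*-deficient cells, and 27 of the 28 in WT, and 28 in *Cxxc1*-deficient cells, did not exceed the 95th percentile of the olfactory receptor genes. *Cdkn2a*, the cell cycle inhibitor locus, had 24 in WT against 25 in *Cxxc1*-deficient cells, *Cdkn2b* had 17 and 27, and *Cdkn1c* had 57 and 36. 18 of the 28 were higher and 10 lower, with a median log2 ratio of 0.16. The olfactory receptor genes had a median log2 ratio of 0.13, and 52.8% of them were higher in *Cxxc1*-deficient cells. Values at least 2-fold higher were found for *Foxa2*, with 20 in WT against 51 in *Cxxc1*-deficient cells, and *Hand2*, with 22 and 44, which is 2 of 28 against 8.22% of genes with a mean under 50 and 19.5% of olfactory receptor genes. Under the 4 scalings described next 19, 24, 24 and 28 of the 28 were higher, but so were 52.8%, 73.3%, 80.3% and 90.2% of all genes with a mean under 50, and after subtraction of the olfactory receptor median 16 were higher and 11 lower. Other than *Cdkn1c* in WT, no target was detectable above the background in either library.

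As genes whose mean reached 100 had a median log2 ratio of -1.08, the scaling of the libraries decides which Polycomb genes pass 2-fold. *Ezh2* and *Suz12* had lower values in *Cxxc1*-deficient cells, and *Phc1* a higher value, under each of the 4 scalings run, after subtraction of the olfactory receptor median and with both pseudocounts. With equal medians over genes above 0 in both libraries, the same 6 genes were at least 2-fold lower. With the same 75th percentile, 3 genes were at least 2-fold lower (*Ezh2*, *Eed* and *Suz12*) and 8.86% of all genes were. With equal sums once the 100 highest genes were left out, only *Ezh2* was, against 6.54% of all genes. With equal medians over genes whose mean reached 100, 0 of the 10 were at least 2-fold lower, against 3.51% of all genes, and *Rnf2*, *Bmi1*, *Cbx7* and *Phc1* were higher. This scaling moved the median of all genes by 1.00 on the log2 scale. The gap between the PRC2 median and the PRC1 median, -1.07, is the same under all 4 scalings by construction, and was -1.06 after the subtraction. With pseudocounts of 1 and 10 it was -1.05 and -0.89. The gap takes no account of the level of the genes.

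**Figure D5:**
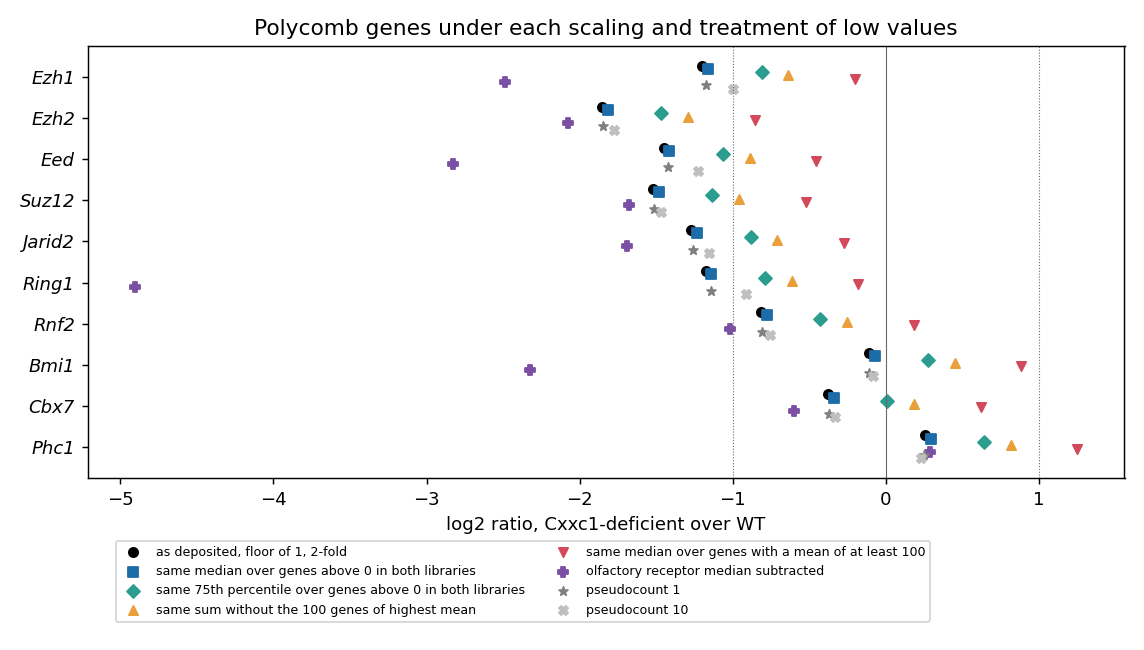
log2 ratio of Cxxc1-deficient to WT for each Polycomb gene as deposited (black circles), under 4 scalings of the libraries, after subtraction of the olfactory receptor median and with pseudocounts of 1 and 10. The 5 PRC2 genes and Ring1 stay left of 0 in all 8 settings and Phc1 stays right of it, while Rnf2, Bmi1 and Cbx7 change sides.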

How the data were processed

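DP thymocytes of each genotype, WT and *Cxxc1*-deficient, gave 1 mRNA library, prepared with the NEBNext mRNA kit. According to the methods and the submitters' processing notes, the authors obtained 50-base reads (CASAVA 1.8.2), mapped them to mm9 (Bowtie 1.0.1 is listed), kept uniquely mapped reads and used Partek; the gene annotation is not given in the sources used here. The deposited table gives each gene a score in each library: normalized expression, which the authors rounded to integers, in a unit that is not named. Read depth is unknown.

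For ratios, values under 1 were set to 1. Genes at 0 in both libraries were left out of shares of genes. With 1 library per group no test, SD or interval was computed, and the range that rounding allows is given instead (0.5 on either side). Locations and lengths came from GENCODE vM1 (NCBIM37, the build of mm9), upstream sequences from RefSeq (GRCm38.p6; all 10 genes matched by symbol). Exon windows of 50 bases were searched as exact matches in the NCBIM37 genome. Calculations were tested on simulated data. Alternatives were 4 scalings, subtraction of the olfactory receptor median, pseudocounts of 1 and 10, a filter on means under 20, and thresholds of 1.5-fold and 3-fold.

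The 10 genes and the gene lists were chosen with earlier results of these data known. Named were all 10 genes, further Polycomb genes with a mean of at least 50 or past 2-fold with a mean of at least 20, and the 2 closest genes to each of the 10 past 2-fold; *Rybp*, *Pcgf1*, *Cdkn2a*, *Cdkn2b* and *Cdkn1c* were named after their values were seen. The values of 1 gene that this rule names are not reported here. Python 3.11.15, numpy 2.4.6, pandas 2.3.3, numba 0.67.0 and matplotlib 3.10.9 were used.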

Additional observations from a re-analysis of the deposited data

How the results depend on the processing

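Over the 10 genes, the median log2 ratio as deposited was -1.19. It was -1.15 when the medians of both libraries were made equal (over genes above 0 in each), -0.80 with equal 75th percentiles, -0.63 with equal sums (leaving out the 100 highest genes), -0.19 with equal medians of genes whose mean reached 100, -1.88 after subtraction of the olfactory receptor median and -0.95 with a pseudocount of 10. The number of genes at least 2-fold lower was 6 as deposited. It was 3 with equal 75th percentiles, 1 with equal sums, 0 with equal medians of the high genes and 1 at 3-fold. After the subtraction it was 8, with *Rnf2* and *Bmi1* in addition, although both values of *Bmi1* lay inside the background. Among the 43 further genes it was 10 as deposited (*Pcgf1*, listed at 0 in 1 library, included), 3 with equal 75th percentiles, 3 with equal sums, 2 with equal medians of the high genes, and 24 after the subtraction, a setting in which 37.4% of all genes were at least 2-fold lower. Each scaling multiplies the *Cxxc1*-deficient library by 1 factor, from 1.03 upward, which accounts for its shift by construction. The log2 change in the ratio of *Ezh2* to *Ezh1* was -0.66 as deposited and reversed to 0.41 after the subtraction, and that of *Rnf2* to *Ring1* went from 0.36 to 3.89, with *Ring1* at the floor. The subtraction, added for this measure after seeing the data, moved the change in the PRC2 share from -17.9 to -18.5 percentage points. The log2 ratio of *Cxxc1*, -0.86 as deposited, was -1.41 after it, -0.83, -0.48 and -0.30 with the first 3 scalings and 0.13, higher in the deficient library, with equal medians of the high genes. No paired analysis was possible because there is 1 library for WT and 1 for the deficient mice. Unknown depth limits all values in the background range.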
